A study of Mus musculus with 12 samples.

Results

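The heterotrimeric G protein subunits and the regulators of G protein signaling (RGS proteins) were examined in striatal RNA of TAAR5-KO and WT mice. Their genes were taken from the count table by symbol, as the alpha subunits Gnai1 to Gnai3, Gnao1, Gnaz, Gnaq and Gna11 to Gna15, the beta subunits Gnb1 to Gnb5, every numbered Gng gamma subunit except Gng7, every numbered Rgs gene except Rgs9, and the anchor genes Rgs7bp and Rgs9bp. This gave 48 of the 57132 features of the table, of which 37 had a CPM (reads of a gene as a share of all reads, scaled to one fixed library size) of at least 0.5 in at least 3 libraries and were tested. The remaining 11 had a CPM under 0.5 in 10 or more libraries and are named as unmeasured. The libraries came from the striatum of C57Bl/6 littermates aged 10 months, 6 labelled TAAR5-KO, that is, knockouts of trace amine-associated receptor 5, and 6 labelled TAAR5-WT, called WT here. Both sexes were used in each group, without a link between a library and a sex, and the labels name no treatment. The tissue was what remained of a coronal slice after its cortex had been cut away, so a library holds every cell type of that piece.

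A heterotrimeric G protein couples a membrane receptor to its effectors. An activated receptor loads the alpha subunit with GTP, the alpha subunit parts from the beta-gamma dimer, and both act on enzymes and ion channels until the GTP is hydrolysed. RGS proteins speed up that hydrolysis and so shorten the signal. In striatal spiny neurons, D1 receptors act through the alpha subunit Gnal, whereas D2 receptors act through the Gi/o class, so the members described here stand mainly on the inhibitory and Gq branches of receptor signaling.

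Taar5 had between 1 and 6 counts in the libraries labelled TAAR5-KO and between 0 and 2 in those labelled WT, where a count of 0 allows up to 3. Taar5 CPM was thus higher under the TAAR5-KO label, against what the label says (p = 0.00649 by two-sided exact permutation), and which part of the gene the knockout removes is not given in the sources used here, so every direction below follows the labels only. The libraries held 11269915 to 34824450 counts, of which ribosomal RNA features took 64.3% to 88.1%, and this left 4926 to 30235 counts on the members of a library. CPM below refers to library sizes scaled by the trimmed mean of M-values (TMM). Summed spiny neuron markers ran from 356 to 453 CPM under the TAAR5-KO label and from 214 to 388 CPM under the WT label (exact permutation p = 0.0260, adjusted over 12 marker lists 0.0779), with all 10 listed markers measured and 0 called. The lowest value was that of the WT library NK11, which also had the highest pituitary marker sum, 55.7 CPM. Choroid plexus markers ranged from 2.60 CPM in NK1 to 468 CPM in NK4, both labelled TAAR5-KO, and cortical pyramidal markers from 29.1 CPM in NK4 to 109 CPM in NK12.

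Among the alpha subunits, the Gi/o class led. Levels between genes are compared per length, as CPM per kilobase of merged exons (RPKM). The merged length is 1 fixed number per gene, so an error in it would recur in every library. The numbers of libraries that keep an order do not cover such an error. Gnao1 (chromosome 8 of GRCm39, 94536594 to 94696016), which encodes the Go alpha subunit abundant in brain, had 10.4 ± 0.854 RPKM (SD, n = 12). Gnai1, an inhibitory subunit that restrains adenylyl cyclase, followed with 7.88 ± 0.885 RPKM, and Gnaq (chromosome 19, 16110195 to 16364827), which activates phospholipase C-beta, with 5.38 ± 0.484 RPKM. This order was the same in 12 of 12 libraries for Gnao1 over Gnai1 and for Gnai1 over Gnaq. Gnai2 came next at 4.41 ± 0.542 RPKM, below Gnaq in 10 of 12 libraries. Gnaz, Gna11 and Gna13 lay between 2.05 and 2.40 RPKM, with Gnaz above Gna11 in 9 libraries and Gna11 above Gna13 in 11. The lowest measured alpha subunits were Gna12 at 1.42 and Gnai3 at 1.22 RPKM. Of the summed RPKM of the 9 measured alpha subunits, Gnao1 made up 27.9% ± 1.15 under the TAAR5-KO label and 27.6% ± 1.56 under the WT label (SD, n = 6 each). Gna14 and Gna15, the Gq-class subunits outside the brain's usual set, were unmeasured, with at most 4 and 17 counts in any library. For comparison, Gnal, which stood outside the member rule, had 5.94 ± 0.792 RPKM and the stimulatory subunit Gnas 7.62 ± 1.10 RPKM.

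A single gene dominated the beta subunits. Gnb1 (chromosome 4, 155575818 to 155643726) had 15.8 ± 1.73 RPKM (SD, n = 12) and held 73.8% ± 2.06 of the summed RPKM of the 4 measured beta subunits under the TAAR5-KO label and 76.4% ± 2.29 under the WT label (SD, n = 6 each). Gnb5, the divergent beta subunit that pairs with RGS proteins of the R7 class, followed at 2.92 ± 0.292 RPKM. Gnb2 had 1.86 and Gnb4 0.396 RPKM, and each step of this order was found in 12 of 12 libraries. Gnb3, known from cone photoreceptors, was unmeasured with at most 1 count. The gamma subunits were led by Gng3 (chromosome 19, 8814297 to 8816558), a neuronal gamma subunit, with 11.1 ± 1.37 RPKM, above Gng2 at 4.58 ± 0.692 RPKM in 12 of 12 libraries. Gng12 at 3.13 and Gng10 at 3.11 RPKM could not be ordered, since Gng12 was the higher one in 5 of 12 libraries. Gng4 had 1.61, Gng11 0.622 and Gng5 0.379 RPKM. Gng8, Gng13 and Gng14 were unmeasured, with at most 7 counts, and Gng7, the partner of Gnal in spiny neurons and no member by the rule, had 8.68 ± 1.25 RPKM. The retrocopies and relatives named after Gnb1, Gng2 and Gng5 had at most 4 counts in any library.

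Rgs4 (chromosome 1, 169569046 to 169575211), an R4-class RGS protein that acts on Gi/o and Gq subunits, had 15.8 ± 3.01 RPKM (SD, n = 12). It could not be ordered against Gnb1, since it was the higher one in 6 of 12 libraries, with 17.6 against 15.1 RPKM under the TAAR5-KO label and 13.9 against 16.4 under the WT label. Rgs4 held 51.1% ± 3.88 of the summed RPKM of the 16 measured RGS genes under the TAAR5-KO label and 45.3% ± 3.59 under the WT label (SD, n = 6 each), shares that were not tested. Rgs17 (chromosome 10, 5775663 to 5872400), of the RZ class that acts on Gz and Gi, had 4.21 ± 0.366 RPKM, and Rgs2, an activity-induced R4-class protein that favours Gq, 2.69 ± 0.354 RPKM. These first 3 kept their order in 12 of 12 libraries. Rgs20, Rgs7 and Rgs10 lay together between 1.67 and 1.71 RPKM, with Rgs20 above Rgs7 in 5 libraries and Rgs7 above Rgs10 in 8, so their order is not secured. Rgs5 had 1.15 and Rgs8 1.05 RPKM, and the 8 genes from Rgs6 down to Rgs3 lay between 0.120 and 0.506 RPKM. Rgs7bp (chromosome 13, 105082412 to 105191438), which tethers R7-class proteins to the membrane, stood at 13.98 ± 1.73 RPKM. Rgs9, the R7-class RGS protein enriched in striatum and no member by the rule, had 3.29 ± 0.806 RPKM. Rgs1, Rgs13, Rgs18, Rgs21 and Rgs9bp were unmeasured, with at most 6 counts in any library. Of these, Rgs1, Rgs13, Rgs18 and Rgs21 lie in 1 chromosome 1 cluster with Rgs2, which alone of the cluster was measured. The same chromosome carries the pairs Rgs4 with Rgs5, 45664 bases apart, and Rgs8 with Rgs16, 40026 bases apart. Within each of these pairs 1 gene was far above the other, Rgs4 at 15.8 against Rgs5 at 1.15 RPKM and Rgs8 at 1.05 against Rgs16 at 0.226 RPKM.

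**Figure D1:**
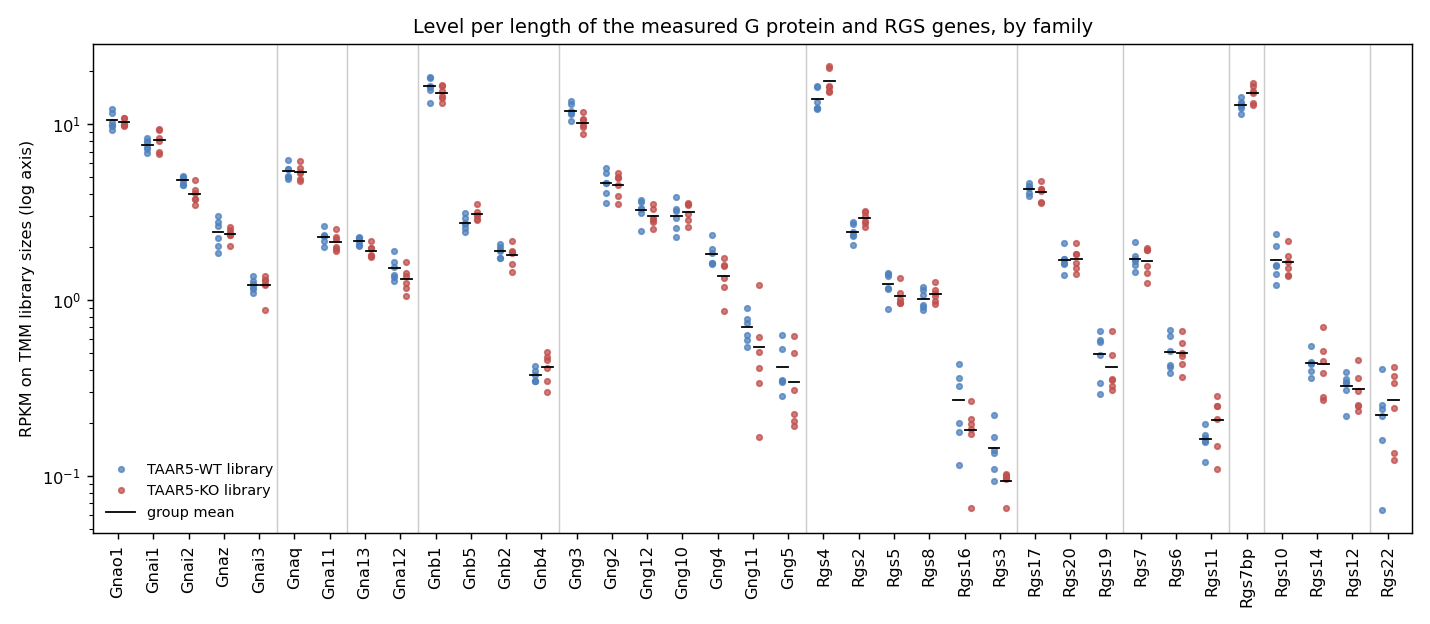
Level per length (RPKM on TMM library sizes, log axis) of the 37 measured members, ordered by level within families that grey lines separate. Each point is 1 library, blue for WT labels and red for TAAR5-KO labels, and black bars are group means. Rgs4, Gnb1, Rgs7bp, Gng3 and Gnao1 were above 10 RPKM on average, and the groups overlapped for every member.

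The comparison of the genotype labels asks whether the loss of a G protein-coupled receptor goes along with other levels of the G protein machinery. None of the 37 measured members was differentially expressed at a Benjamini–Hochberg adjusted p under 0.1 in the likelihood ratio test of edgeR. Of all 13902 features tested, 229 were (1.65%), 0.957% higher and 0.691% lower under the TAAR5-KO label. The quasi-likelihood test of edgeR also called 0 members, against 0.453% of all features (0.309% higher and 0.144% lower). DESeq2 called 2 members among the 29 for which it gave an adjusted p, Rgs4 as higher and Gnai2 as lower, against 2.57% of all features with one (1.48% higher and 1.09% lower). At an unadjusted p under 0.05 there were 8 members (21.6%) against 11.9% of all features. Gnai2, Gng4, Gng3, Gna13 and Rgs3 were the 5 with lower values under the TAAR5-KO label (5.51% of all features), and Rgs4, Rgs2 and Rgs7bp the 3 with higher values (6.39%). The quasi-likelihood test and DESeq2 gave an unadjusted p under 0.05 to the same 8, against 12.0% and 9.73% of all features. For 0 members did the groups fail to overlap, against 1.01% of all features (0.626% higher and 0.388% lower). A log2 fold change above 0 was found for 13 members (35.1%), against 48.9% of all features, and the median was −0.068 against −0.006 over all features. Of the 20 measured subunits, 15 had values below 0 and 5 above, with a median of −0.088, whereas the 16 measured RGS genes split into 9 and 7, with a median of −0.049. Scaling by library size alone moved the median of all features to −0.49 and left 2 members above 0, so all differences are relative to the TMM scale. Adjusted p values below are those of the likelihood ratio test of edgeR unless DESeq2 is named, and fold changes are on the log2 scale with their standard error (SE).

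**Figure D2:**
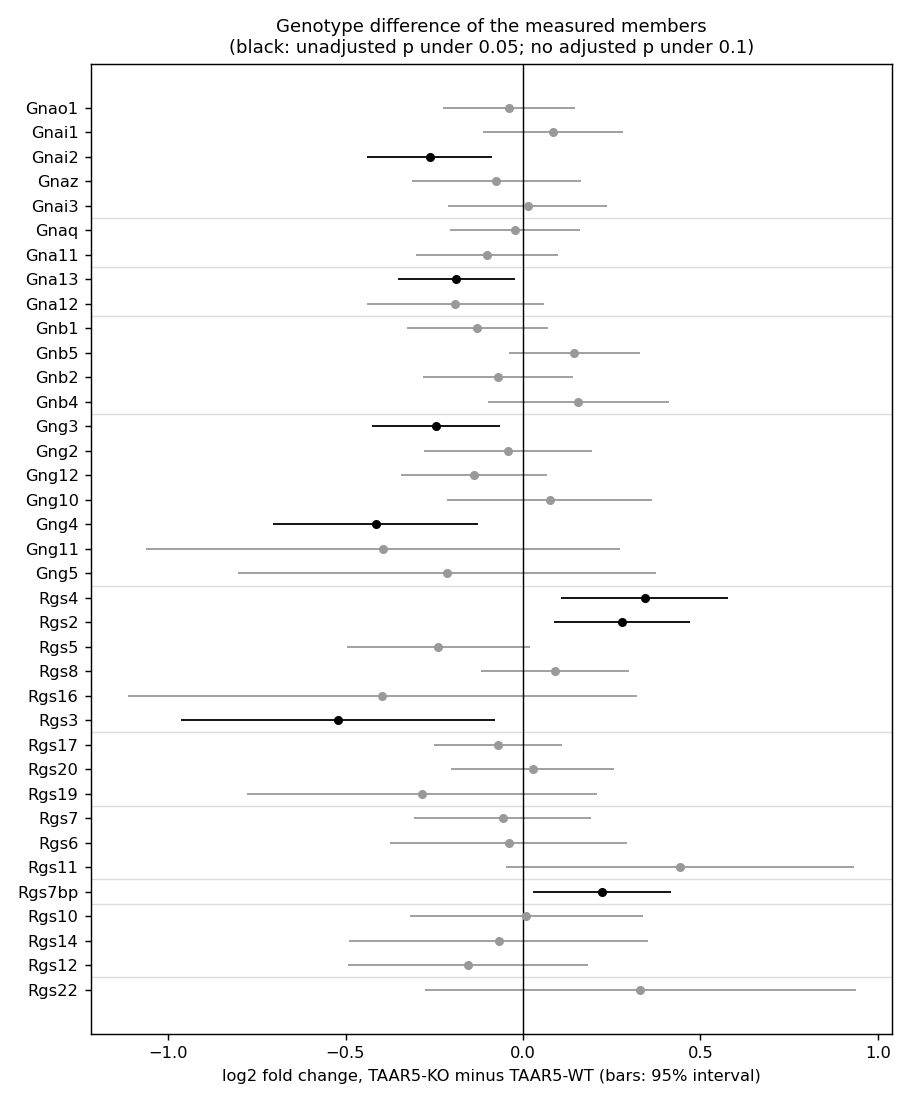
Log2 fold change of libraries labelled TAAR5-KO minus those labelled WT for the 37 measured members, with 95% intervals, in the families and order of the plot of levels. Black marks the 8 members with an unadjusted p under 0.05. Rgs4 at 0.34 and Gng4 at −0.42 are examples of intervals that leave out 0, and the widest interval, that of Rgs16, runs from −1.11 to 0.32.

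Gnai2 (ENSMUSG00000032562.14, chromosome 9, 107491324 to 107512566), the inhibitory alpha subunit found in many cell types, had the smallest p of the members. It ran from 13.1 to 18.2 CPM with a median of 14.8 in libraries labelled TAAR5-KO, and from 17.1 to 19.2 CPM with a median of 18.2 in those labelled WT. Of the libraries labelled TAAR5-KO, 5 lay below all those labelled WT, and the sixth, NK4, lay within them. Its fold change was −0.26 ± 0.089 (edgeR adjusted p = 0.134), and DESeq2 gave −0.26 (adjusted p = 0.0990). Without NK4 it was −0.32 (adjusted p = 0.0233 in the likelihood ratio test, where 2.99% of all features were called), and without both NK4 and NK11 it was −0.31 (adjusted p = 0.0941, with 1.09% of all features called). The other 11 fits with 1 library left out gave adjusted p from 0.129 to 0.326, the quasi-likelihood test of edgeR 0.201, and removal of GC trends −0.15 (adjusted p = 0.661). Beside it, the summed microglia markers ran from 25.0 to 36.2 CPM in libraries labelled TAAR5-KO and from 34.8 to 43.3 CPM in those labelled WT (exact permutation p = 0.00433, adjusted 0.0260), with all 6 markers measured, all 6 at fold changes below 0, and P2ry12 and Csf1r called. Astrocyte markers ran from 184 to 244 CPM and from 246 to 289 CPM (exact permutation p = 0.00216, adjusted 0.0260, the smallest p that 6 against 6 can give before adjustment), with 6 of 6 below 0 and Gja1 called. The 6 oligodendrocyte markers were also below 0, with 0 called (exact permutation p of their sum 0.0260, adjusted 0.0779). Their part in the values of Gnai2 was not tested, and in bulk tissue fewer cells of a type and less RNA per cell cannot be told apart.

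Gna13 (chromosome 11, 109253657 to 109292195), an alpha subunit of the G12/13 class, ran from 11.3 to 13.9 CPM (median 12.2) under the TAAR5-KO label and from 13.1 to 14.7 CPM (median 14.2) under the WT label. As for Gnai2, 5 libraries labelled TAAR5-KO lay below all those labelled WT and NK4 was the exception. Its fold change of −0.19 ± 0.084 did not pass the threshold (edgeR adjusted p = 0.325). Its relative Gna12 had −0.19 ± 0.13 (edgeR adjusted p = 0.585), with a 95% interval from −0.44 to 0.059.

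Both neuronal gamma subunits named by the smallest p values were lower under the TAAR5-KO label without passing the test. Gng4 (chromosome 13, 13958644 to 14002481) ran from 2.92 to 5.82 CPM (median 4.84) in libraries labelled TAAR5-KO and from 5.40 to 7.85 CPM (median 5.85) in those labelled WT. Its highest value was that of NK11, the WT library with the lowest spiny neuron marker sum, and 5 libraries labelled TAAR5-KO lay below all labelled WT. The fold change of Gng4 was −0.42 ± 0.15 (edgeR adjusted p = 0.160), and −0.29 without NK4 and NK11 (adjusted p = 0.462). Gng3 ran from 14.4 to 19.2 CPM (median 16.9) against 17.2 to 22.3 CPM (median 19.3), with 3 libraries labelled TAAR5-KO below all labelled WT. This gave −0.25 ± 0.093 (edgeR adjusted p = 0.202). Gng3 shares 398 bases of its exons, 24.2% of its length, with Bscl2 on the opposite strand. The strand setting of the counting is not given in the sources used here, so the value of Gng3 is uncertain. Of the measured members, 13 share exons with a gene on the opposite strand. The same uncertainty holds for Gng2 (20.4% of its length), Gna12 (13.3%) and Rgs16 (10.1%), and to a lesser degree for the others.

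Rgs4 differed most in CPM between the group means among the RGS genes, while Rgs3, Rgs11 and Rgs16 had log2 fold changes of larger size. Rgs4 ran from 47.1 to 66.3 CPM (median 50.8) in libraries labelled TAAR5-KO and from 37.9 to 51.4 CPM (median 40.0) in those labelled WT. NK3 and NK6, at 64.5 and 66.3 CPM, stood above the other 4 labelled TAAR5-KO, and NK10 and NK12, at 50.6 and 51.4 CPM, above the other 4 labelled WT. The fold change of Rgs4 was 0.34 ± 0.12 (adjusted p = 0.152 in edgeR and 0.0945 in DESeq2). It passed the threshold of edgeR without NK4 (0.38, adjusted p = 0.0820), without NK10 (0.40, adjusted p = 0.0962, with 1.36% of all features called) and without NK12 (0.40, adjusted p = 0.0887, with 1.0% of all features called). In the other 9 fits with 1 library left out, the adjusted p of Rgs4 ran from 0.136 to 0.332, and it was 0.216 in the quasi-likelihood test of edgeR. Rgs4 is also high in cortex, so the summed pyramidal neuron markers are given beside it. They were 96.2 CPM in NK3, 88.8 in NK6, 44.3 in NK10 and 109 in NK12. In NK2, which had the lowest Rgs4 under the TAAR5-KO label (47.1 CPM), they were also 88.8 CPM. In NK11 and NK7 they were 91.0 and 72.4 CPM, with Rgs4 at 41.5 and 38.6 CPM. Group ranges were 29.1 to 96.2 CPM under the TAAR5-KO label and 35.7 to 109 CPM under the WT label (exact permutation p = 0.920). The spiny neuron markers had 10 of 10 fold changes above 0, and Rgs4, Rgs2 and Rgs7bp were above 0 too. The sum of these markers ran from 356 CPM in NK6 to 453 CPM in NK4 under the TAAR5-KO label. It was lowest of all libraries in NK11, at 214 CPM. Rgs4 was 66.3 CPM in NK6, 47.9 CPM in NK4 and 41.5 CPM in NK11. The part of either list in the level of Rgs4 was not tested.

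Rgs2 (chromosome 1, 143875076 to 143879899) ran from 9.49 to 11.6 CPM (median 10.6) in libraries labelled TAAR5-KO and from 7.45 to 10.1 CPM (median 8.72) in those labelled WT. Above all WT labels lay 4 libraries labelled TAAR5-KO, and below all TAAR5-KO labels lay 4 labelled WT. This gave 0.28 ± 0.098 (edgeR adjusted p = 0.157), and 0.31 (adjusted p = 0.0890) without NK9, a fit that called 2.37% of all features. In the other 11 fits with 1 library left out, the adjusted p of Rgs2 ran from 0.112 to 0.386, and it was 0.213 in the quasi-likelihood test of edgeR. Rgs2 is an activity-dependent gene. All 5 immediate early genes were measured, all 5 at fold changes above 0 and 0 called. Their sum ran from 17.4 to 37.7 CPM (median 24.8) under the TAAR5-KO label and from 12.3 to 42.2 CPM (median 15.1) under the WT label (exact permutation p = 0.364). The value of 42.2 CPM was that of NK12, against 12.3 to 21.9 CPM in the others labelled WT. The part of the immediate early genes in the level of Rgs2 was not tested.

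The promoters of Rgs4 and Rgs2 are shown because these were the members with the smallest p among those higher under the TAAR5-KO label, and because Rgs2 is known to be induced by neuronal activity and cAMP. The windows are RefSeq promoters of build GRCm38.p6, 250 bases before to 50 after the start of the gene, and 35 of the 48 members had an entry. The letters searched were TGACG and its reverse complement CGTCA, the core of a cAMP response element, and matches are in capitals.
Rgs4 (chr1:169747593-169747892, minus strand): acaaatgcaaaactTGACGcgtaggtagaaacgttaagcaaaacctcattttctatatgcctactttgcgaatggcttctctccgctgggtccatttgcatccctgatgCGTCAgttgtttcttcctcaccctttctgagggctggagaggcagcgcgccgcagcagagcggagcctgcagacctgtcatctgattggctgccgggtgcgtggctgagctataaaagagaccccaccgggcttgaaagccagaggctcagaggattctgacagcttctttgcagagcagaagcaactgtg
Rgs2 (chr1:144004100-144004399, minus strand): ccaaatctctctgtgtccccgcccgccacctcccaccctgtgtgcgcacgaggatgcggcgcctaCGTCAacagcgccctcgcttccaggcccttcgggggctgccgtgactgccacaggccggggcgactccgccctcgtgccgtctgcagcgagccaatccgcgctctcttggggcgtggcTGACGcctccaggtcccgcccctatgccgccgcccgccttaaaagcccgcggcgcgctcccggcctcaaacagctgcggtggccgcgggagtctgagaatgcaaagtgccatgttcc
Each window shown held 1 match in each orientation. Both orientations were in 3.37% of the 32851 promoter windows and in 6.82% of the 44 windows of members. At least 1 match was in 20.8% of all windows and in 22.7% of those of members. The complete palindrome TGACGTCA was in 1.79% of all windows and in 0% of those of members.

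The remaining members at an unadjusted p under 0.05 differed widely in level. Rgs7bp ran from 91.7 to 121 CPM (median 108) in libraries labelled TAAR5-KO and from 81.5 to 102 CPM (median 91.3) in those labelled WT. The 4 highest of all libraries were labelled TAAR5-KO, while NK4 and NK5 lay among those labelled WT. The fold change of Rgs7bp was 0.22 ± 0.099 (edgeR adjusted p = 0.328). Rgs3 (chromosome 4, 62478084 to 62622238), an R4-class regulator of Gi and Gq, was the lowest of the measured members per length, with 13 to 45 counts in a library. It ran from 0.713 to 1.12 CPM (median 1.06) against 1.02 to 2.41 CPM (median 1.49), with 5 libraries labelled WT above all labelled TAAR5-KO. Its fold change of −0.52 ± 0.23 (edgeR adjusted p = 0.309) was −0.67 (adjusted p = 0.0969) with the ribosomal RNA share of each library as a covariate, a fit in which 0.734% of all features and 1 member were called.

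**Figure D3:**
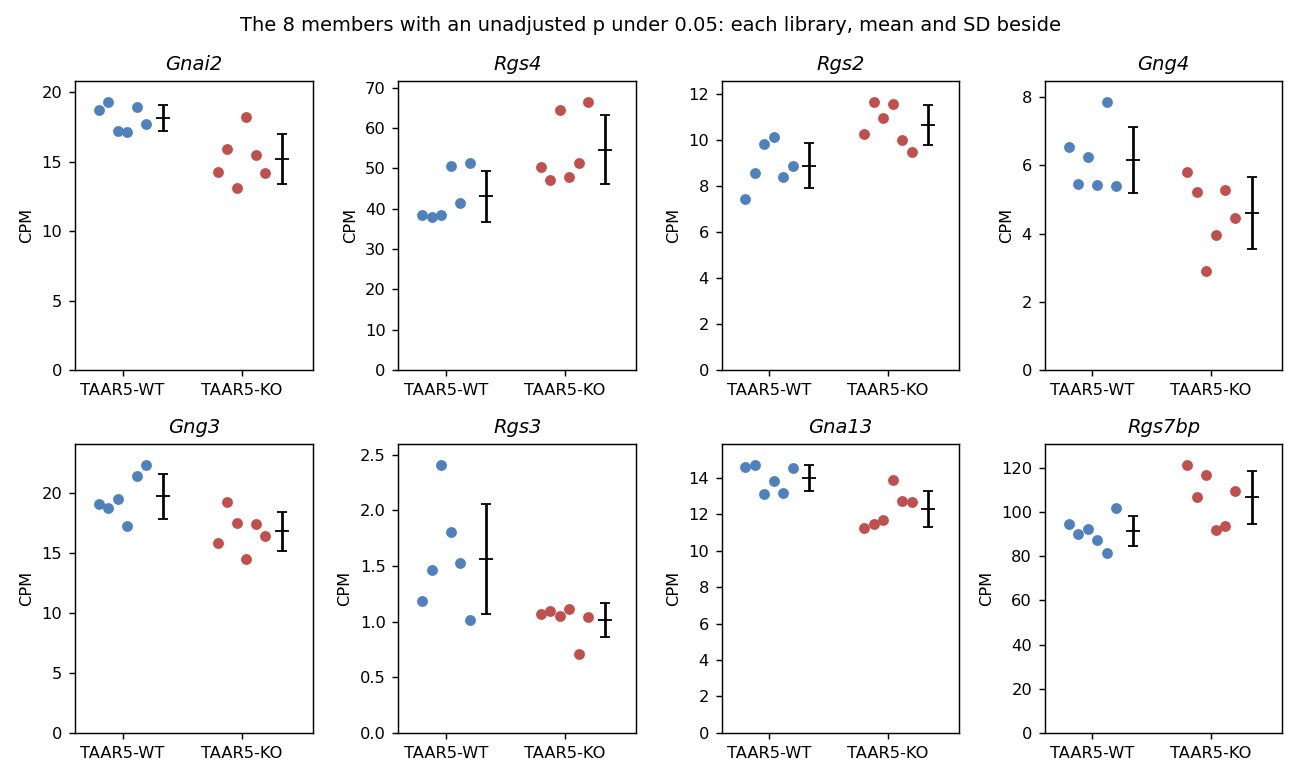
CPM on TMM library sizes (linear axes from 0) of the 8 members with an unadjusted p under 0.05, with 1 point per library and the mean with its SD beside each group of 6. In each panel at least 1 library of 1 label lies within the range of the other label, as NK4 does for Gnai2 at 18.2 CPM.

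Rgs5 and Rgs11 completed the 10 members with the smallest p. Rgs5 (chromosome 1, 169483070 to 169523382), an R4-class gene that marks pericytes, ran from 4.36 to 6.08 CPM (median 4.54) and from 4.05 to 6.49 CPM (median 5.78), which gave −0.24 ± 0.13 (edgeR adjusted p = 0.470). With the ribosomal RNA share as a covariate it was −0.12 (adjusted p = 0.836). The summed mural cell markers, of which 6 of 8 were measured, 6 at fold changes below 0 and 0 called, ran from 4.45 to 6.89 CPM under the TAAR5-KO label and from 4.34 to 7.53 CPM under the WT label (exact permutation p = 0.171). Rgs11 (chromosome 17, 26421925 to 26430298), an R7-class gene with 6 to 46 counts per library, had 0.459 to 1.20 CPM (median 0.970) against 0.504 to 0.836 CPM (median 0.680), which gave 0.44 ± 0.25 (edgeR adjusted p = 0.476).

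For the abundant members outside these 10, the intervals give the sizes of difference that the data leave possible. Gnao1 ran from 109 to 121 CPM in libraries labelled TAAR5-KO and from 103 to 136 CPM in those labelled WT, a log2 fold change of −0.039 with a 95% interval from −0.23 to 0.15. Gnaq had −0.022 (−0.21 to 0.16) and Gnb1 −0.13 (−0.33 to 0.069). Rgs17 had −0.070 (−0.25 to 0.11). The interval of Rgs10, an R12-class protein abundant in microglia, was wider at −0.32 to 0.34 around 0.0097, with 29 to 120 counts per library. At the lower end of expression, Rgs16, Gng11, Gng5 and Rgs22 had coefficients of variation over the 12 libraries from 41.1% to 46.7%, against a median of 15.1% over the 37 members and 19.9% over all features. Rgs22 ran from 0.703 to 2.35 CPM under the TAAR5-KO label and from 0.361 to 2.30 CPM under the WT label, with a fold change of 0.33 (−0.28 to 0.94), which was 0.19 without NK4, 0.21 without NK6 or without NK10, and 0.52 without NK9.

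The 20 measured members outside the 10 with the smallest p and the leaders of each family had fold changes from −0.40 for Rgs16 to 0.16 for Gnb4, with edgeR adjusted p from 0.572 to 0.979. Among the alpha subunits Gnai1 had 0.085, Gnai3 0.014, Gnaz −0.075 and Gna11 −0.10. Of the beta subunits, Gnb2 had −0.070 and Gnb4 0.16. The gamma subunits Gng2 at −0.042, Gng10 at 0.076 and Gng12 at −0.14 were measured with at least 31 counts in every library. Gng11 at −0.39 and Gng5 at −0.22 had as few as 2 and 7 counts, and their intervals ran from −1.06 to 0.27 and from −0.80 to 0.37. Single libraries moved these low members: Rgs16 was −0.063 without NK11 and −0.24 without NK1, Gng11 was −0.79 without NK4, −0.25 without NK1 and −0.23 without NK6, and Gng5 ran from −0.44 (without NK4) to −0.075 (without NK6). Among the RGS genes, Rgs8, a regulator enriched in some inhibitory neurons, had 0.091, Rgs20 0.027, Rgs12 −0.15, Rgs14 −0.068 and Rgs19 −0.28. Leaving out 1 library moved Rgs12 between −0.30 (NK1) and −0.086 (NK6), and Rgs19 between −0.44 (NK4) and −0.15 (NK12).

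The R7 complexes bring several of these genes together, since an R7-class RGS protein is stable only when bound to Gnb5 and is held at the membrane by Rgs7bp or the receptor Gpr158. Rgs7 had a fold change of −0.057 ± 0.13, Rgs6 of −0.040 ± 0.17 and Gnb5 of 0.15 ± 0.094, with edgeR adjusted p of 0.914, 0.956 and 0.572. Gnb5 had 2 libraries labelled TAAR5-KO above all labelled WT and 4 labelled WT below all labelled TAAR5-KO. Outside the member rule, Rgs9 had 0.41 ± 0.17 (edgeR adjusted p = 0.274) and Gpr158 0.18 ± 0.097 (adjusted p = 0.470). None of them passed the threshold.

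Other genes of the pathway were examined from lists of related subunits, RGS-homology proteins, modulators and effectors. Of 8 further G protein subunits 3 were measured and 0 were called, with Gnas at −0.29 ± 0.099 (edgeR adjusted p = 0.147) and Gnal at 0.10 ± 0.12 (adjusted p = 0.790). Among 16 genes with an RGS homology domain, which include the receptor kinases, 15 were measured and 0 were called, 8 with values above 0 and 7 below. Rgs9 and Snx13 had the smallest p of them, with Snx13 at 0.17 ± 0.089 (edgeR adjusted p = 0.428). The list of 14 chaperones, exchange factors, GoLoco proteins, RGS7-binding receptors and Gprin genes had 11 measured and 0 called. Its smallest p were those of Gprin3 at 0.35 ± 0.14 (edgeR adjusted p = 0.263) and Ccdc88c at 0.34 ± 0.16 (adjusted p = 0.349). All 10 effectors and arrestins were measured and 0 were called. Plcb1, the Gq effector, had 0.21 ± 0.11 (edgeR adjusted p = 0.425) and Arrb1, which uncouples receptors, −0.10 ± 0.093 (adjusted p = 0.713). The medians of the 4 lists ran from −0.085 to 0.048, against −0.006 over all features.

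The fold changes of the members were related to the GC content of their exons. Rgs4, Rgs2 and Rgs7bp, the 3 with higher values at an unadjusted p under 0.05, had 43.2% to 44.1% GC, whereas the 5 with lower values had 46.7% to 55.6%. Pearson's r between GC content and log2 fold change was −0.32 across the 37 members and −0.33 across the 13871 features with a known GC content. Genes are not independent replicates, so no p is given. After the trend of each library on GC content was removed, r across the members was 0.025 and members with values above and below 0 numbered 18 and 19. A value of r near 0 follows from that removal, so r and the split are not separate results. On that scale Rgs4 had 0.31, Rgs2 0.22, Rgs7bp 0.17, Gng4 −0.34, Gng3 −0.22 and Gnai2 −0.15, each with the same sign as before. In that fit 0 members were called, against 91 of all features tested, so the 0 says little about the members.

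**Figure D4:**
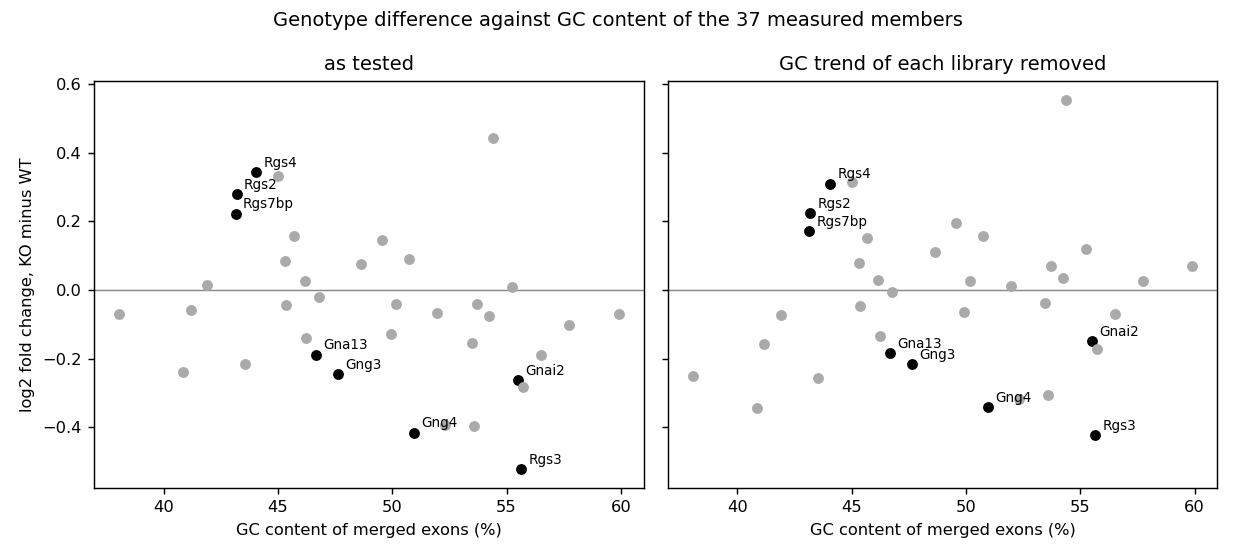
Log2 fold change (TAAR5-KO minus WT labels) against the GC content of the merged exons in percent for the 37 measured members, as tested on the left and with the GC trend of each library removed on the right. Black points are the 8 members with an unadjusted p under 0.05. Gnai2 moved from −0.26 to −0.15, and Rgs4 from 0.34 to 0.31.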

How the data were processed

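RNA of 12 striata was depleted of ribosomal RNA and sequenced from directional libraries as single-end reads. The deposited table holds whole-number read counts for each gene beside merged exon lengths, which the authors made with cutadapt 4.1, STAR 2.7.11b on GRCm39 (GENCODE M35) and featureCounts 2.0.6. How strand and multiply mapped reads were handled in counting is not given in the sources used here. Columns name a genotype and an NK number that no label ties to an animal, so each column was a replicate of its label. Another 12 count columns were left out. The 30 pairs of libraries within a label differed beyond sampling noise (chi-square per degree of freedom 3.52 to 203).

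The counts were fitted with edgeR 4.0.16 (R 4.3.3): TMM factors, features with CPM of at least 0.5 of total counts in at least 3 libraries, glmFit and glmLRT without covariates, Benjamini–Hochberg over all 13902 features, and calls at adjusted p under 0.1. The test, the CPM filter and the threshold follow the study's methods, which name no TMM scaling. Standard errors came from the same fit. DESeq2 1.42.0 left 8 members without an adjusted p. One value per library was compared by two-sided exact permutation. GC content came from GENCODE M39 and loess trends used a span of 0.5. Where a library had 0 counts, up to 3 were taken as possible, which covers counting error only.

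Members, lists and tests were chosen with earlier results of these data known. Named were members called by any test, without overlap, highest per length in their family, or among the 10 with the smallest p, and the 2 genes with the smallest p of each related list. Gng7, Gpr158, Gna12, Gnb5 and other measured members were given beside them for context.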

Additional observations from a re-analysis of the deposited data

Results flagged for a closer look

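Of 104 groups of 6 libraries examined (the 37 measured members, the 12 marker sums, Taar5, total counts and the ribosomal RNA share under each label), 10 had a library far from the rest by Dixon's criterion, which flags about 1 in 20 by chance. Among members, Gnai3 was low in NK2 (2.89 CPM, against 3.99 to 4.46 in the others labelled TAAR5-KO) and Rgs3 was low in NK5 (0.713 CPM, against 1.04 to 1.12). Among marker sums of libraries labelled WT, spiny neuron markers were low in NK11 (214 CPM) and oligodendrocyte markers low in NK12 (609 CPM). Mural markers were low in NK10 (4.34 CPM), blood cell markers high in NK10 (15.2 CPM), immediate early genes high in NK12 (42.2 CPM) and pituitary markers high in NK11 (55.7 CPM). Among libraries labelled TAAR5-KO, endothelial markers were high in NK4 (12.4 CPM) and pituitary markers high in NK5 (5.20 CPM).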

How the results depend on the processing

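No paired analysis was possible because the labels pair no TAAR5-KO animal with a WT animal. The column names also carry none of the animal numbers of the labels. The number of members called was 0 in the reported fit, 2 by DESeq2, 1 with the ribosomal RNA share as covariate, 0 to 2 when 1 library was left out, and 1 without NK4 and NK11 together, a setting chosen after seeing the data. It was 0 in the other alternatives run. The members tested rose from 37 to 44 with ribosomal RNA features removed and to 48 with no filter. The 229 features called in all became 63 by the quasi-likelihood test, 7 with library size as the only scaling, 93 with no filter, 108 at an adjusted p under 0.05, 102 with the ribosomal RNA covariate, 91 with GC trends removed, 150 without NK4 and NK11, and 85 (without NK11) to 414 (without NK4) when 1 library was left out; without NK1, NK2, NK3, NK7 or NK12 they were 114, 114, 137, 102 and 136. Members above 0 numbered 13 in the reported fit and 11 to 16 with 1 library left out. They numbered 15 with the covariate, 18 with GC trends removed, and 11 with no filter or without ribosomal RNA features. With library size as the only scaling they numbered 2. That scaling turned Rgs4 to −0.12, Rgs2 to −0.19, Rgs7bp to −0.34 and Rgs10 to −0.43; without a filter the median of all features shifted to −0.11. Values near 0 changed sign elsewhere. Gnao1 was 0.0048 with the covariate and 0.069 with GC trends removed. Gnaq was 0.012 with the covariate and 0.017 without NK4 and NK11. Rgs10 was −0.12 with the covariate, −0.016 with no filter, −0.0038 without ribosomal RNA features and −0.094 without NK4 and NK11. With 1 library left out, Gnao1 ran from −0.063 to 0.0077, Gnaq from −0.056 to 0.024, Rgs10 from −0.082 to 0.10 and Rgs7 from −0.11 to 0.020. The causes were not tested. Depth limits the low members, as for Rgs16, which had as few as 2 counts and an interval from −1.11 to 0.32.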
